A study of Mus musculus with 514 samples.

Results

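The genes described here are Trp53, which encodes the transcription factor p53, and 9 genes that p53 is known to activate: Mdm2, Cdkn1a, Ccng1, Btg2, Plk2, Tigar, Phlda3, Trp53inp1 and Zmat3. They were found by gene name, and all 10 were present among the 55168 named genes of the full-length expression table. Their levels were followed in single mouse MII oocytes and in embryos up to the 8-cell stage, in controls and after loss of Nr5a2, of Esrrb or of the pair, which are orphan nuclear receptors.

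p53 is a transcription factor that is held at a low level by the ubiquitin ligase Mdm2 and accumulates after DNA damage and other stress. It binds pairs of a 10-base element near its target genes and raises their transcription. Mdm2 is itself a target, which closes a negative feedback loop, and Cdkn1a encodes p21, the cyclin-dependent kinase inhibitor through which p53 halts the cell cycle. The activity of p53 is set largely by protein level and modification, so the Trp53 transcript alone does not report it.

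Each library was made from 1 oocyte or embryo grown ex vivo, by a full-length protocol derived from FLASH-seq on polyadenylated RNA. In the group names, m marks maternal loss, z zygotic loss and mz loss of both, while NrKO means that Nr5a2 was knocked out, EKO that Esrrb was, and DKO that both were. Per the file headers, DHet controls were heterozygous for both deletions, NrHet controls for the Nr5a2 deletion, and Nrpp controls carried wild-type or floxed alleles, so the DHet and NrHet controls themselves carry a deletion. Full-length values were used for 9 Nrpp, 18 NrHet and 12 NrKO oocytes. At the early 2-cell stage (E2C) there were 21 mz_Nrpp, 29 mz_NrHet, 22 mz_NrKO, 12 z_NrKO and 18 m_NrKO embryos, and at the late 2-cell stage (L2C) 7 mz_DHet, 10 mz_EKO, 10 mz_NrKO, 6 mz_DKO, 7 z_NrHet and 6 z_NrKO. The 4-cell stage (4C) had 6 mz_DHet, 4 mz_EKO, 5 mz_NrKO and 10 mz_DKO embryos, and the 8-cell stage (8C) had 21 mz_DHet embryos and 10 of each of the 3 mutants (mz_EKO, mz_NrKO, mz_DKO). The Cre driver, the mothers and the litters are not given in the sources used here, so the p-values rest on embryo-to-embryo spread and embryos of 1 litter may be among them.

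Values are transcripts per 1000000 (TPM), whose sequencing depth is unknown, and 10655 to 15971 genes exceeded 1 TPM in a library. Since each library is a whole embryo, fewer cells of a type and less RNA per cell cannot be told apart. The 6 oocyte markers measured (such as Gdf9 and Zp3) all exceeded 1 TPM on average in oocytes, and all 8 markers of cleavage to morula (such as Pou5f1 and Cdx2) did so at 8C. At 8C the Nr5a2 transcript averaged 472 ± 144 TPM (SD, n = 21) in mz_DHet and 597 ± 241 (n = 10) in mz_NrKO. At L2C it averaged 532 ± 113 (n = 7) and 461 ± 203 (n = 10), so its level does not check the deletion. Esrrb at 8C averaged 47.8 ± 15.5 TPM (n = 21) in mz_DHet, 18.0 ± 8.2 (n = 10) in mz_EKO and 26.8 ± 10.7 (n = 10) in mz_DKO. One library stood apart, mz_NrKO replicate 1 at E2C, which had the lowest TPM sum of all (814735), and the mz_NrKO results at that stage are given with and without it.

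In the mouse genome (mm10, GENCODE annotation) Trp53 lies at chr11:69580359-69591873, Mdm2 at chr10:117688875-117710758, Cdkn1a at chr17:29090976-29100727, Ccng1 at chr11:40748552-40755311 and Plk2 at chr13:110395046-110400844. Tigar lies at chr6:127085116-127109557, Trp53inp1 at chr4:11156431-11174379 and Zmat3 at chr3:32334792-32366014. Btg2 (chr1:134075170-134079120) and Phlda3 (chr1:135766119-135769136) lie 2.76 and 1.07 Mb from Nr5a2 on the same chromosome, so for these an effect of Nr5a2 loss and of DNA inherited with the deleted allele cannot be told apart. Cdkn1a and Tigar each overlap an annotated gene on the other strand (AC167363.2 and Platr31). Whether counting used strand is not given in the sources used here, so reads of those partners could be counted with them.

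The promoters of the members whose levels carry the results are shown to let the known p53 element be seen in them. Windows of 250 bases before the RefSeq start (GRCm38.p6, which is mm10) were read for 8 members with 9 promoters, and Trp53inp1 and Zmat3 had none. Capitals mark exact matches on either strand to the known 10-base p53 element and, in Cdkn1a, also an adjoining copy with 1 mismatch. Positions count back from the start. The first Cdkn1a promoter holds 2 exact matches beside that copy, and Mdm2, Ccng1 and Trp53 hold 1 match each at -186, -185 and -75.
Cdkn1a, chr17:29090886-29090967, plus strand: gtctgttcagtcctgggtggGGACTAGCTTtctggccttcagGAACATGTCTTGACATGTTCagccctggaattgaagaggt
Mdm2, chr10:117710915-117710964, minus strand: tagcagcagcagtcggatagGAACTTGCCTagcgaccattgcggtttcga
Ccng1, chr11:40755442-40755491, minus strand: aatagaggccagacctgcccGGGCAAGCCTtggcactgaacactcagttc
Trp53, chr11:69580264-69580313, plus strand: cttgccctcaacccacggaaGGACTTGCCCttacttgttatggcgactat
Plk2, chr13:110394944-110395043, plus strand, no match: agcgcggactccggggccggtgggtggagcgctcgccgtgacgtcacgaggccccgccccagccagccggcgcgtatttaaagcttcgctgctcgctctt
Btg2, chr1:134079156-134079255, minus strand, no match: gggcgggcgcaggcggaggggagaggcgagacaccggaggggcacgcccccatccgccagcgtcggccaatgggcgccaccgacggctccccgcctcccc
Tigar, chr6:127109553-127109652, minus strand, no match: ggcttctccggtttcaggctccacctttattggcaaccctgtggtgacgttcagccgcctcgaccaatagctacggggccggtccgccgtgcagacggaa

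In all, 4 of the 9 member promoters hold the 10-base element, and so do 7.13% of 32851 mouse promoters in windows of the same length. A pair of elements (at most 13 bases apart, at most 2 mismatches, core letters intact) is in 1 of the 9, the first Cdkn1a promoter, and in 1.75% of all promoters. The letters AAGGTCA, the core of the known Esrrb motif, are in 0 of 9 and in 4.08% of all, and TCAAGGNCA, a form of the known Nr5a2 motif, is in 0 of 9 and in 1.39% of all (both strands searched, and a site can match both). These matches describe letters in a short window. The known p53 sites of Mdm2, for instance, lie in its first intron, outside this window.

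In control development the members did not move as a block: Tigar rose sharply at L2C, Mdm2 fell between 4C and 8C, and Btg2 and Plk2 peaked at E2C. The steps were fitted over the 5 control groups with limma on log2(TPM + 1), and a gene was called at a Benjamini-Hochberg adjusted p under 0.05. Across these groups the stage, the labelled date and the control genotype (Nrpp up to E2C, DHet after) cannot be told apart. From oocyte to E2C 5 of 10 members were called (4 higher, 1 lower), against 53.2% of all 15453 genes tested, and from E2C to L2C 7 (3 higher, 4 lower) against 77.2%. From L2C to 4C none was called (9.2% of all genes were, and 1 member passed an unadjusted p under 0.05), and from 4C to 8C 5 (3 higher, 2 lower) against 56.2%. The median gene moved by 0.45, -0.12, -0.08 and -0.40 on the log2 scale in these 4 steps, and the members' changes are to be read beside those shifts.

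**Figure D1:**
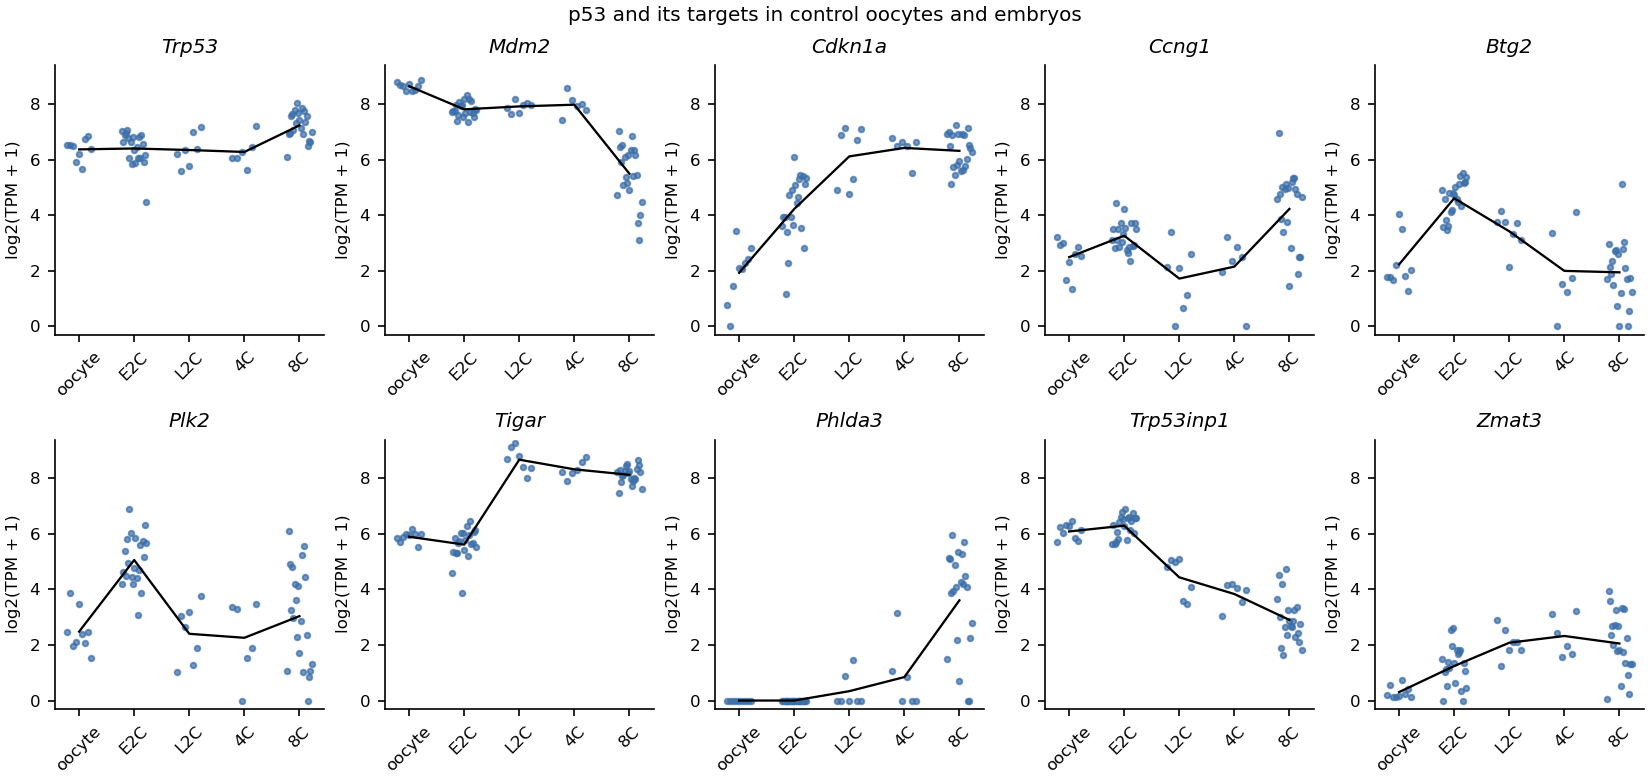
Levels of the 10 genes as log2(TPM + 1) (vertical axis) in control oocytes and embryos by stage, 1 point per library, with a line through the group means (9 oocytes and 21 E2C embryos of genotype Nrpp, and 7 L2C, 6 4C and 21 8C embryos of genotype DHet). Tigar steps up at L2C, Mdm2 steps down at 8C, and Phlda3 is at 0 TPM in all Nrpp oocytes and E2C embryos.

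Trp53 was at a steady level until 4C and rose at 8C. It ranged from 50.1 to 115 TPM (median 88.6) in the 9 oocytes, from 21.5 to 132 (median 93.9) at E2C, from 46.8 to 144 (median 80.5) at L2C and from 48.1 to 149 (median 70.9) at 4C. At 8C it ranged from 66.8 to 259 TPM (median 160), and 11 of the 21 embryos lay above all 6 at 4C. The step to 8C was 0.96 ± 0.25 (log2, SE, adjusted p = 0.000719).

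Mdm2, the ubiquitin ligase for p53, was the most abundant member in oocytes and went the other way. It ranged from 352 to 463 TPM (median 402) in oocytes and from 162 to 324 (median 216) at E2C, where all 21 embryos lay below all 9 oocytes. Levels of 201 to 291 TPM (median 250.7) at L2C and 172 to 380 (median 250) at 4C overlapped. At 8C they were 7.52 to 131 TPM (median 43.0), all 21 below all 6 embryos at 4C. The fall was 0.83 ± 0.25 on the log2 scale from oocyte to E2C (adjusted p = 0.00389) and reached a log2 change of -2.49 ± 0.29 from 4C to 8C (adjusted p = 5.1e-11), a 5.6-fold difference. The 8C level of Mdm2 differed by date: 7.52 to 21.4 TPM in the 4 mz_DHet embryos dated 15 July 2022, against 29.3 to 114 in the 15 dated 8 March 2022. Date is a term in the knockout comparisons below.

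Cdkn1a, the p21 gene, rose in 2 steps. It lay between 0 and 9.75 TPM (median 3.28) in oocytes, between 1.26 and 67.2 (median 20.7) at E2C and between 26.1 and 140 (median 105) at L2C. The steps were 2.30 ± 0.37 (adjusted p = 1.63e-07) and 1.89 ± 0.40 (adjusted p = 2.43e-05). At 4C (44.4 to 110, median 93.5) and 8C (33.5 to 149, median 84.8) it overlapped the L2C range, with steps of 0.31 ± 0.51 and -0.11 ± 0.43 that were not called.

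Ccng1 encodes cyclin G1, which recruits a phosphatase to Mdm2, and was low until 8C. Its median TPM was 5.01 in oocytes and 7.60 at E2C, then 3.25 (L2C) and 4.35 (4C). At 8C the median was 26.3, with a range from 1.76 to 123. It fell from E2C to L2C (log2 change -1.54 ± 0.43, adjusted p = 0.00104) and rose from 4C to 8C (2.08 ± 0.46, adjusted p = 8.52e-05), with 16 of 21 embryos above all 6 at 4C.

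Btg2, an antiproliferative cofactor of mRNA deadenylation, and Plk2, a polo-like kinase that p53 induces, were transiently high at E2C. Btg2 had a median of 2.49 TPM in oocytes (1.39 to 15.5), 25.8 at E2C (10.0 to 45.2) and 12.2 at L2C (3.35 to 16.7), with later medians of 2.1 at 4C and 2.65 at 8C. Plk2 had a median of 4.31 TPM in oocytes (1.91 to 13.7), 30.0 at E2C (7.54 to 118) and 5.29 at L2C (1.02 to 12.5), followed by 5.80 at 4C and 6.81 at 8C. The rise into E2C was 2.38 ± 0.38 for Btg2 (adjusted p = 1.72e-07) and 2.58 ± 0.50 for Plk2 (adjusted p = 1.02e-05). From E2C to L2C Btg2 changed by -1.19 ± 0.42 (adjusted p = 0.00824, but 0.0666 with a pseudocount of 0.1) and Plk2 by -2.66 ± 0.55 (adjusted p = 1.56e-05), and 5 of 7 L2C embryos were below all 21 at E2C for Plk2.

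Tigar, a fructose bisphosphatase that lowers glycolytic flux, rose steeply between E2C and L2C. It ranged from 44.8 to 71.6 TPM (median 61.8) in oocytes and 13.6 to 86.6 (median 50.4) at E2C, and then from 254.6 to 624.9 (median 414.9) at L2C. All 7 L2C embryos were above all 21 at E2C (3.06 ± 0.19, 8.33-fold, adjusted p = 1.87e-23). It was 238 to 434 TPM (median 304) at 4C and 175 to 399 (median 290) at 8C. The oocyte to E2C difference, -0.28 ± 0.17, was not called (adjusted p = 0.167), but it was called as -0.71 (adjusted p = 0.00121) after median-of-ratios scaling.

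The other 3 genes had profiles of their own. Phlda3, which competes with Akt for membrane lipids, was at 0 in all 9 oocytes and all 21 E2C embryos, and at 0 in 5 of 7 embryos at L2C and 3 of 6 at 4C. It was above 0 in 19 of 21 embryos at 8C (highest 60.8, median 16.2 TPM), a step of 2.76 ± 0.52 (adjusted p = 5.2e-06). Trp53inp1, a nuclear protein linked to autophagy and cell death, had a median of 68.8 TPM in oocytes and 84.3 at E2C, then 26.8 at L2C, 15.3 at 4C and 5.72 at 8C. It was called lower from E2C to L2C (-1.86 ± 0.27, adjusted p = 6.86e-09, all 7 below all 21) and from 4C to 8C (-0.93 ± 0.29, adjusted p = 0.00429), though the second was lost after median-of-ratios scaling (-0.54, adjusted p = 0.101). Zmat3, an RNA-binding regulator of splicing, was never abundant, with medians of 0.16 TPM in oocytes and 1.55 at E2C, and 3.30 at L2C, 3.61 at 4C and 3.01 at 8C. Its step into E2C (0.94 ± 0.33, adjusted p = 0.0129) and its step to L2C (0.84 ± 0.36, adjusted p = 0.0315) were called, but the second turned to -0.37 (adjusted p = 0.351) with mz_NrHet and z_NrHet as the controls.

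Compared over the whole span from L2C to 8C, 7 of 10 members were called (3 higher, 4 lower) against 64.0% of all genes. With the date shared by both stages (8 March 2022, 2 embryos against 15) the count was 4, against 56.0% of 13264 genes, namely Trp53, Ccng1 and Phlda3 higher and Mdm2 lower. Tigar, at -0.55 over this span (adjusted p = 0.0094), was at -0.10 after median-of-ratios scaling (adjusted p = 0.711).

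Loss of Nr5a2 left the members without a called change in oocytes. Of the 6 members that passed the filter (5 TPM or more in a number of libraries equal to the stage's smallest group), 0 were called in NrKO against NrHet, where 0.212% of 8952 genes were, and 1 passed an unadjusted p under 0.05. That gene was Tigar, at 51.3 to 77.3 TPM (median 54.8) in the 12 NrKO oocytes and 41.9 to 66.5 (median 52.3) in the 18 NrHet. The ranges overlapped, and 11 of 12 lay above the control median (0.17 ± 0.08, adjusted p = 0.345).

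At E2C 9 members were tested and 0 were called in any knockout. The background was 5.17% of 13040 genes for mz_NrKO, 0.245% for m_NrKO and 0.0% for z_NrKO, each against mz_NrHet, and 3, 2 and 1 members passed an unadjusted p under 0.05. In mz_NrKO these were Tigar, Plk2 and Ccng1 (-0.52, adjusted p = 0.141), in m_NrKO Tigar (0.41, adjusted p = 0.233) and Ccng1 (-0.55, adjusted p = 0.251), and in z_NrKO Plk2 (-0.69, adjusted p = 0.899). Tigar ranged from 11.0 to 120 TPM (median 74.4) in the 22 mz_NrKO embryos against 27.1 to 105 (median 51.3) in the 29 mz_NrHet. Of the mutants 19 of 22 lay above the control median (0.46 ± 0.15, adjusted p = 0.0547). The lowest mutant value belongs to replicate 1, and without that library the difference was called (0.58, adjusted p = 0.00283), as it was after median-of-ratios scaling (0.55, adjusted p = 0.00271). Plk2 ranged from 3.16 to 89.4 TPM (median 23.2) in mz_NrKO and from 11.2 to 133 (median 41.1) in mz_NrHet, with 15 of 22 below the control median (-0.69 ± 0.24, adjusted p = 0.0798). Among the embryos of 1 August (12 against 12) it was called, at -1.12 (adjusted p = 0.0464). Without replicate 1, where 6.66% of 13026 genes were called, Tigar was the 1 member called, and Plk2 (-0.58, adjusted p = 0.141) and Ccng1 (-0.41, adjusted p = 0.246) were not. That library also enters the shared spread of the stage: without it the all-gene count for m_NrKO went from 32 to 409, with 0 members called both times.

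The authors' deposited table, which compared mz_NrKO with mz_Nrpp at E2C, gives 0.75 for Tigar (false discovery rate 0.000261) and -1.03 for Plk2 (0.0258) on the log2 scale. The summed 2-cell burst markers (Zscan4, Tdpoz and Usp17l genes) were also lower in those mutants, with a median of 173 TPM (0.85 to 1061) against 1337 (21.8 to 5211) in mz_NrHet. Their part in the Tigar and Plk2 values was not tested. Between mz_NrKO and m_NrKO 0 of 9 members were called (0.0% of all genes, 0 at an unadjusted p under 0.05). Between the mz_NrHet and mz_Nrpp controls 0 of 9 were called (0.268% of all genes), and 1, Zmat3, passed an unadjusted p under 0.05.

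At L2C 0 of 9 tested members were called in any of the 4 knockouts, against a background of 0.127% of 14147 genes in mz_NrKO, 0.0% in mz_EKO, 0.141% in mz_DKO and 0.099% in z_NrKO. The numbers of members passing an unadjusted p under 0.05 were 1, 1, 0 and 3. In mz_NrKO and mz_EKO this was Ccng1, with a median of 7.29 TPM (2.56 to 23.8) and 8.18 (1.73 to 16.3) against 3.25 (0 to 9.50) in mz_DHet (1.44 ± 0.68, adjusted p = 0.576, and 1.497 ± 0.70, adjusted p = 0.741). All 10 mz_NrKO and 8 of 10 mz_EKO embryos carry the date 8 March 2022, but only 2 of 7 mz_DHet embryos do (1.21 and 5.03 TPM), so genotype and date overlap largely here even with date as a term. In z_NrKO those 3 were Btg2, Zmat3 and Trp53inp1, and Btg2 ranged from 12.2 to 24.7 TPM (median 15.8) in 6 mutants and from 1.43 to 18.9 (median 5.83) in 7 z_NrHet (1.5 ± 0.52, adjusted p = 0.317). All 6 lay above the control median, and the ranges overlapped. Zmat3 showed the same order, at 2.31 to 9.64 TPM (median 5.40) against 0.10 to 4.48 (median 2.01), with 5 of 6 above all controls (1.29 ± 0.46, adjusted p = 0.326). Trp53inp1 went the other way, at 6.93 to 28.4 TPM (median 9.18) in z_NrKO against 12.1 to 32.65 (median 20.5) in z_NrHet.

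At 4C 0 of 9 tested members were called. The background was 0.675% of 13044 genes in mz_NrKO, 0.0% in mz_EKO and 2.58% in mz_DKO, and 1, 0 and 1 members passed an unadjusted p under 0.05. Both times this was Tigar. It measured 143 to 319 TPM (median 236) in the 5 mz_NrKO embryos and 194 to 354 (median 228) in the 10 mz_DKO, against 238 to 434 (median 304) in the 6 mz_DHet. In mz_NrKO 3 of 5 were below all controls (-0.62 ± 0.19, adjusted p = 0.151), and in mz_DKO 6 of 10 were (-0.41 ± 0.16, adjusted p = 0.201). In the 4 mz_EKO embryos it was 264 to 440 TPM (median 333). For full-length reads the authors' deposited table gives Tigar at -0.60 in mz_NrKO (false discovery rate 0.124) and -0.45 in mz_DKO (0.112). For UMI reads, described below, it gives -0.67 (false discovery rate 0.067) and -0.465 (0.0329).

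**Figure D2:**
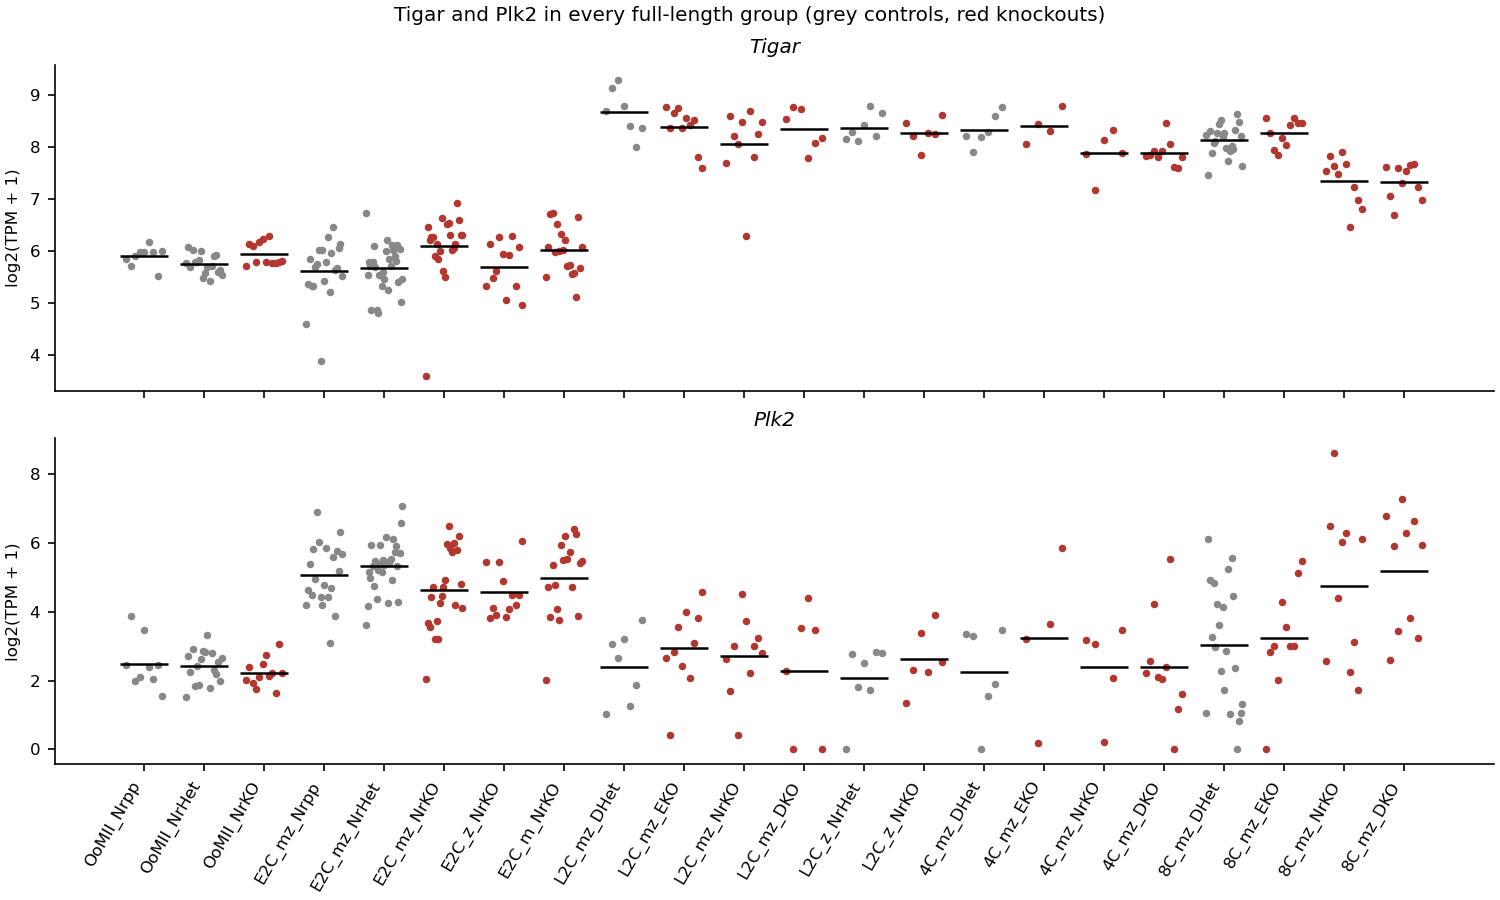
Tigar (top) and Plk2 (bottom) as log2(TPM + 1) in all 22 full-length groups, 1 point per oocyte or embryo with a bar at the group mean, controls in grey and knockouts in red. Tigar is low up to E2C and high from L2C, with mz_NrKO and mz_DKO at 8C below mz_DHet and mz_EKO, and Plk2 is high at E2C and in the same 2 mutant groups at 8C.

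At 8C 4 of the 10 members were called after loss of Nr5a2, alone or with Esrrb, and none after loss of Esrrb alone. In mz_NrKO Btg2, Plk2 and Zmat3 rose and Tigar fell. In mz_DKO Btg2, Plk2 and Trp53 rose and Tigar fell. The background at this stage is high: 28.3% of 10876 genes were called in mz_NrKO and 33.7% in mz_DKO, so 4 of 10 members is a share near that of all genes. In mz_EKO 0 members were called and 0.00919% of all genes were (1 gene), with 0 members at an unadjusted p under 0.05. The median change over the members was 0.58 in mz_NrKO, 0.53 in mz_DKO and -0.03 in mz_EKO (log2), and over all genes 0.01, 0.05 and 0.01.

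Tigar was the most uniform of these. It ranged from 175 to 399 TPM (median 290) in the 21 mz_DHet embryos and from 229 to 378 (median 325) in the 10 mz_EKO. In mz_NrKO it ranged from 87.3 to 238 (median 181) and in mz_DKO from 102 to 203 (median 171). All 10 mz_NrKO and all 10 mz_DKO embryos were below the control median, and 4 and 5 of them were below all 21 controls. The difference from mz_DHet was -0.76 ± 0.14 in mz_NrKO (adjusted p = 2.22e-05) and -0.81 ± 0.14 in mz_DKO (adjusted p = 4.78e-06), 1.7- and 1.76-fold lower. Leaving out any 1 mutant embryo gave -0.83 to -0.65 and -0.85 to -0.74, and both calls held each time.

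Btg2 was low in controls and raised in most mutants that lacked Nr5a2. It ranged from 0 to 34.3 TPM (median 2.65) in mz_DHet, 0.26 to 13.1 (median 4.00) in mz_EKO, 1.32 to 38.0 (median 13.8) in mz_NrKO and 4.75 to 64.2 (median 14.2) in mz_DKO. The groups overlapped: 1 control embryo at 34.3 TPM exceeded 9 of 10 mz_NrKO embryos. Above the control median lay 9 of 10 mz_NrKO (1.69 ± 0.44, adjusted p = 0.00248) and 10 of 10 mz_DKO (2.07 ± 0.44, adjusted p = 0.000192). The corresponding folds, 3.22 and 4.19, are on the log2(TPM + 1) scale, which understates changes of genes this low.

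Plk2 ranged from 0 to 67.7 TPM (median 6.81) in mz_DHet and 0 to 43.6 (median 7.02) in mz_EKO, against 2.30 to 389 (median 42.1) in mz_NrKO and 5.05 to 154 (median 59.4) in mz_DKO. In each of these mutant groups 4 of 10 embryos were above all controls, while 3 mz_NrKO embryos and 1 mz_DKO embryo were below the control median. These counts do not account for date, and July embryos are in mz_DHet and mz_NrKO but not in mz_DKO. The difference was 1.99 ± 0.62 in mz_NrKO (adjusted p = 0.0117) and 1.70 ± 0.63 in mz_DKO (adjusted p = 0.0302). The mz_NrKO call was lost without the date term (1.72, adjusted p = 0.0608) and with replicate number as a block (2.02, adjusted p = 0.0517). The mz_DKO call was lost without replicate 1 (1.34, adjusted p = 0.106), replicate 5 (1.48, adjusted p = 0.0738), replicate 6 (1.59, adjusted p = 0.0565) or replicate 8 (1.55, adjusted p = 0.0631).

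Trp53 and Zmat3 passed in 1 group each. Trp53 ranged from 66.8 to 259 TPM (median 160) in mz_DHet, 106 to 251 (median 163) in mz_EKO, 70.5 to 272 (median 185) in mz_NrKO and 126 to 390 (median 217) in mz_DKO. In mz_DKO 8 of 10 were above the control median (0.45 ± 0.15, adjusted p = 0.0196), a call lost without replicate 10 (0.37, adjusted p = 0.0598), and in mz_NrKO the difference was 0.28 ± 0.15 (adjusted p = 0.173). Zmat3 ranged from 0.03 to 14.4 TPM (median 3.01) in mz_DHet, 0.22 to 12.9 (median 4.11) in mz_EKO, 1.53 to 38.0 (median 7.28) in mz_NrKO and 0.72 to 35.3 (median 9.91) in mz_DKO. Its difference was 1.20 ± 0.42 in mz_NrKO (adjusted p = 0.0258), lost without replicate 2 (1.09, adjusted p = 0.0583), replicate 3 (1.00, adjusted p = 0.0808) or replicate 10 (1.06, adjusted p = 0.0584). In mz_DKO it was 1.04 ± 0.42 (adjusted p = 0.0514), and it was called without replicate 2 (adjusted p = 0.0238), replicate 4 (0.00971) or replicate 7 (0.0409).

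**Figure D3:**
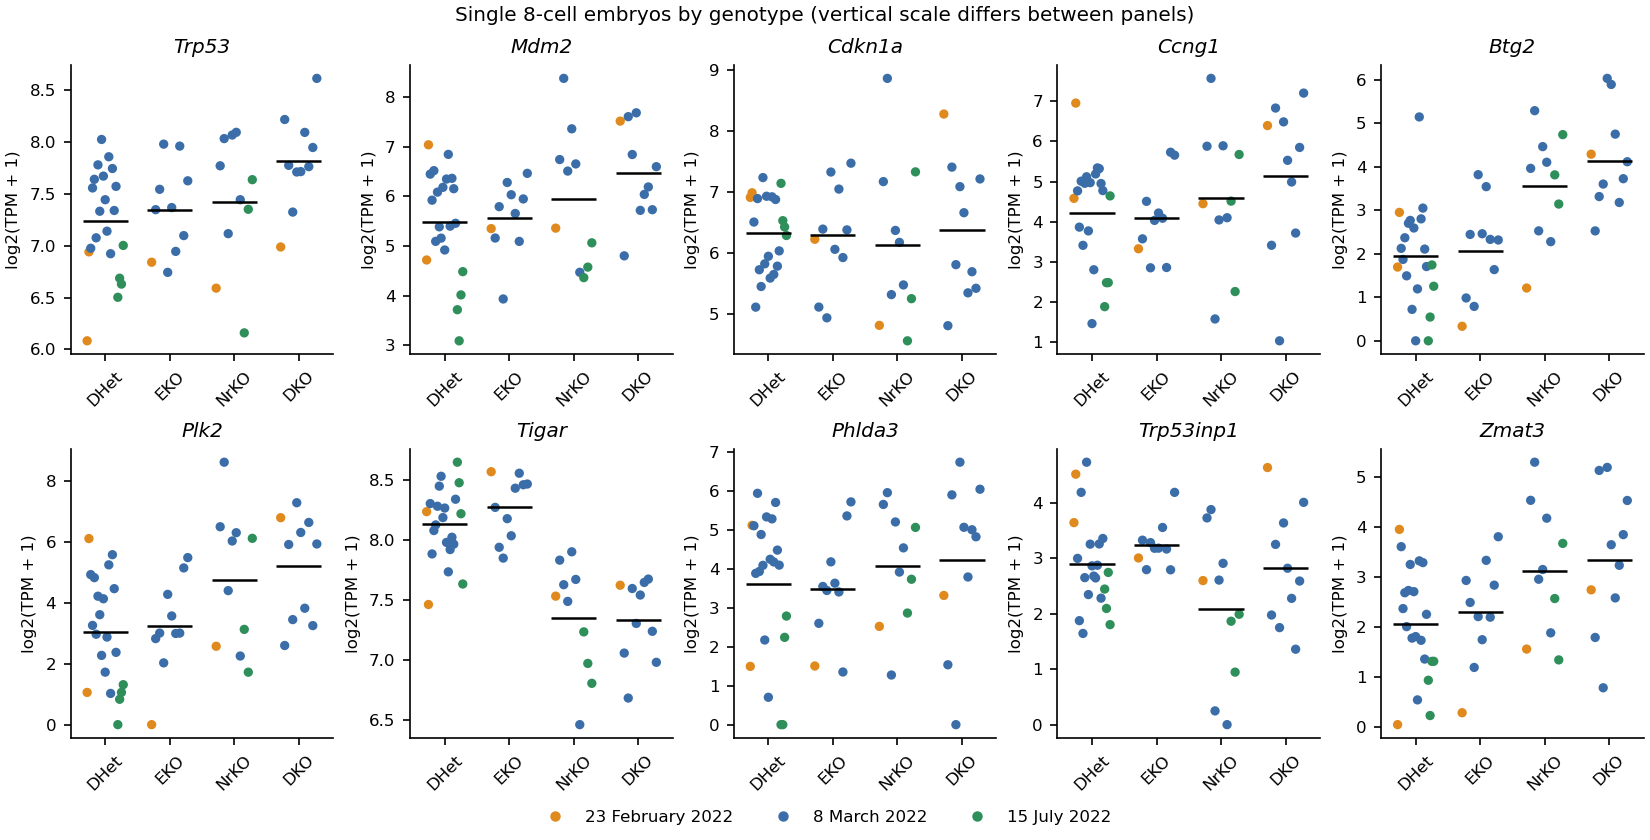
Each 8-cell embryo as log2(TPM + 1) for the 10 genes (vertical scale differs between panels), by genotype (21 controls and 10 of each mutant), coloured by labelled date, with a bar at the group mean. Tigar is the gene whose NrKO and DKO embryos all lie below the median of the DHet controls, and the July embryos (green) are low in Mdm2 and Plk2 among the controls.

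Mdm2, the feedback gene, and Cdkn1a, the p21 gene, were not called. Mdm2 ranged from 19.6 to 332 TPM (median 65.1) in mz_NrKO and 26.9 to 205 (median 84.0) in mz_DKO, against 7.52 to 131 (median 43.0) in mz_DHet. The differences were 0.67 ± 0.31 (adjusted p = 0.102) and 0.60 ± 0.32 (adjusted p = 0.14). Above the control median lay 9 of 10 mz_DKO and 5 of 10 mz_NrKO embryos, counts that do not account for date. July embryos, low in Mdm2 among the controls, are in mz_DHet and mz_NrKO but not in mz_DKO, so these counts cannot be compared between the mutants. The mz_NrKO difference was called without replicate 1 (0.83, adjusted p = 0.041) or replicate 7 (0.92, adjusted p = 0.0176), and the mz_DKO difference without replicate 2 (0.79, adjusted p = 0.0482). Cdkn1a ranged from 22.5 to 463 TPM (median 57.2) in mz_NrKO and 26.9 to 308 (median 77.4) in mz_DKO, against 33.5 to 149 (median 84.8) in mz_DHet. The differences were -0.19 (95% interval -0.88 to 0.50, adjusted p = 0.73) and 0.05 (-0.65 to 0.75, adjusted p = 0.929).

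Ccng1 (0.50 ± 0.54 and 0.69 ± 0.55) and Phlda3 (0.70 ± 0.60 and 0.24 ± 0.61) were not called in mz_NrKO or mz_DKO. Trp53inp1 ranged from 0 to 13.8 TPM (median 4.02) in mz_NrKO against 2.13 to 25.7 (median 5.72) in mz_DHet, a difference of -0.76 ± 0.34 (adjusted p = 0.0904). It was called without replicate 2 (-0.95, adjusted p = 0.0367) or replicate 3 (-0.97, adjusted p = 0.0331).

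A few embryos were high in several members at once. The mz_NrKO embryo of replicate 3 had the group's highest values of Mdm2 (332 TPM), Cdkn1a (463), Ccng1 (189), Btg2 (38.0), Plk2 (389), Phlda3 (61.5), Trp53inp1 (13.8) and Zmat3 (38.0), while its Tigar level (197 TPM) was within the group. Without it the mz_NrKO differences were 1.51 for Btg2 (adjusted p = 0.00991), 1.62 for Plk2 (adjusted p = 0.0487) and -0.79 for Tigar (adjusted p = 3.38e-05), and Zmat3 was not called, as given above.

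Restricting to embryos of 8 March 2022 (6 mz_NrKO, 9 mz_DKO and 15 mz_DHet) gave 1.59 for Btg2 (adjusted p = 0.0207), 2.11 for Plk2 (0.0186), 1.30 for Zmat3 (0.0469) and -0.64 for Tigar (0.00172) in mz_NrKO. In mz_DKO it gave 1.95 for Btg2 (adjusted p = 0.000948), -0.83 for Tigar (5.18e-06) and 0.43 for Trp53 (0.0285), and Plk2 was not called (1.45, 0.06).

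UMI reads, which mark the 5' ends of transcripts, were available for some of the same embryos (5 mz_NrKO, 9 mz_DKO, 9 mz_EKO and 16 mz_DHet) and are not an independent replicate. In mz_NrKO they gave 3.00 ± 0.73 for Plk2 (adjusted p = 0.00203), 1.24 ± 0.41 for Mdm2 (0.0212) and 1.41 ± 0.49 for Zmat3 (0.029). Btg2 (1.26 ± 0.49, adjusted p = 0.0548) and Tigar (-0.32 ± 0.20, adjusted p = 0.238) were not called there. Of these 5 mz_NrKO libraries, replicate 2 of the UMI numbering had the highest Mdm2 (289 TPM), Plk2 (269) and Zmat3 (25.05). The next highest values were 119, 74.6 and 14.8 TPM. UMI reads were not fitted without that library. In mz_DKO, UMI reads called Btg2 (1.32), Plk2 (1.69), Trp53 (0.41), Zmat3 (1.12) and Tigar (-0.79).

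The authors' deposited table for full-length reads at 8C gives, for mz_NrKO, 0.86 for Mdm2 (false discovery rate 0.0133), 3.103 for Plk2 (0.000103), 2.01 for Btg2 (0.00343), 1.78 for Zmat3 (0.00225), 1.09 for Ccng1 (0.0669) and -0.55 for Tigar (0.000628). For mz_DKO the authors' deposited table gives 0.86 for Mdm2 (false discovery rate 0.00746), 0.42 for Trp53 (0.00663), 2.09 for Btg2 (0.00129), 1.82 for Plk2 (0.0164), 1.52 for Zmat3 (0.0114), 1.085 for Ccng1 (0.0841) and -0.67 for Tigar (9.83e-06). Of these values in the authors' deposited table, Tigar in mz_NrKO and Trp53 in mz_DKO are below the authors' fold criterion of 1.5.

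Levels of stage markers moved with these groups. The summed cleavage-to-morula markers (8 of 8 above 1 TPM in every group) had a median of 4381 TPM (3354 to 7806) in mz_DHet, 4519 (3791 to 5933) in mz_EKO, 2535 (1769 to 6098) in mz_NrKO and 2469 (1657 to 2797) in mz_DKO. The summed 2-cell burst markers had medians of 24.6 (2.71 to 148), 34.0 (9.06 to 97.9), 205 (9.17 to 906) and 207 TPM (126 to 1731), with 3, 3, 4 and 6 of 7 markers above 1 TPM. The summed oocyte markers had medians of 20.3 (3.76 to 57.7), 18.1 (4.72 to 41.6), 57.3 (9.71 to 151) and 102 TPM (22.1 to 152), with 3, 2, 3 and 3 of the 6 measured above 1 TPM. The part of these stage markers in the Tigar, Btg2 and Plk2 results was not tested. Of 11 cumulus and granulosa markers, only Amhr2 exceeded 1 TPM on average in each of the 4 groups, and 5 to 7 of the 11 were at 0 in every embryo. The summed blood markers had medians of 0, 0, 4.81 and 8.62 TPM (highest 6.68, 7.29, 75.8 and 34.2), no sperm marker averaged above 1 TPM, and of 4 oviduct markers Epcam, which embryos also express, exceeded it in each group and Ovgp1 in mz_DKO alone.

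**Figure D4:**
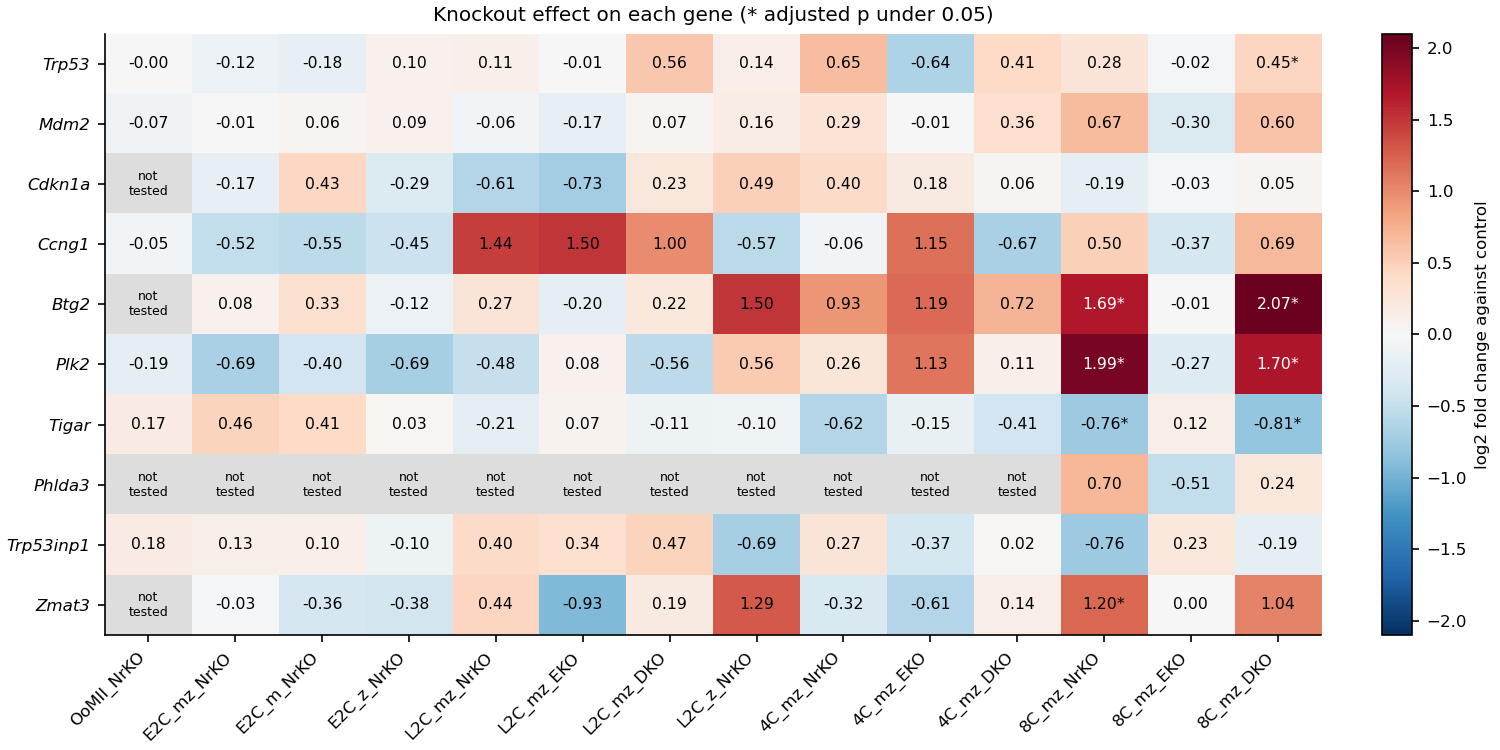
Log2 fold change of each gene (rows) in each knockout group against its control (columns, the group names as in the text), from limma with labelled date as a factor, with an asterisk where the adjusted p was under 0.05 and a remark where the gene did not pass the filter and was not tested. All 8 asterisks fall in 2 columns, mz_NrKO and mz_DKO at 8C.

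The mutants were also tested against each other. Against mz_EKO, mz_NrKO had 3 members called where 22.7% of all genes were, namely Btg2 (1.70 ± 0.52, adjusted p = 0.0146), Plk2 (2.26 ± 0.74, adjusted p = 0.022) and Tigar (-0.89 ± 0.16, adjusted p = 5.83e-05). In mz_DKO against mz_EKO 4 were called where 30.2% of all genes were: Trp53 (0.47 ± 0.17, adjusted p = 0.0352), Btg2 (2.08 ± 0.50, adjusted p = 0.00109), Plk2 (1.96 ± 0.71, adjusted p = 0.0306) and Tigar (-0.94 ± 0.16, adjusted p = 5.18e-06). For Tigar 9 of 10 mz_NrKO and 10 of 10 mz_DKO embryos were below all 10 mz_EKO embryos. These comparisons share embryos with those against mz_DHet.

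Between mz_DKO and mz_NrKO 0 members were called, where 0.147% of all genes were, and 0 passed an unadjusted p under 0.05. The interval of that difference was -0.37 to 0.27 for Tigar, -0.65 to 1.41 for Btg2 and -1.75 to 1.16 for Plk2, so for the last pair sizable differences remain possible.

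Whether the knockout effect itself differed between stages was tested in a joint fit of the L2C, 4C and 8C embryos. No member was called for mz_DKO at 8C minus 4C (6.1% of 17686 genes were) or at 8C minus L2C (5.41%), nor for mz_NrKO at 8C minus 4C (1.5%) or at 8C minus L2C (1.79%). At an unadjusted p under 0.05 the numbers of members were 0, 3, 1 and 2. For mz_DKO at 8C minus L2C those 3 were Tigar (-0.70 ± 0.28, adjusted p = 0.131), Btg2 (1.84 ± 0.81, adjusted p = 0.181) and Plk2 (2.26 ± 1.08, adjusted p = 0.236). The calls at 8C and their absence at L2C and 4C are therefore not shown to differ between stages in full-length reads. In UMI reads Plk2 was called for mz_NrKO at 8C minus L2C (4.82 ± 1.23, adjusted p = 0.0148), where full-length reads gave 2.48 ± 1.14 (adjusted p = 0.27). The L2C part of that UMI value rests on embryos whose genotype and date overlap largely, as given above.

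Genes around this set were described by 5 lists. Their counts at 8C are to be read against the 28.3% and 33.7% of all genes called there and the all-gene medians of 0.01 and 0.05. Of 33 listed p53 regulators, 27 were tested at 8C. In mz_NrKO 3 were higher and 4 lower, with a median of 0.04, and in mz_DKO 5 were higher and 2 lower (median 0.10). The largest change was in Hipk2, a kinase that phosphorylates p53, at 1.94 ± 2.08 TPM (SD, n = 21) in mz_DHet, 9.23 ± 7.56 in mz_NrKO (1.77 ± 0.46, adjusted p = 0.00254) and 33.2 ± 31.4 in mz_DKO (3.02 ± 0.46, adjusted p = 8.49e-07). Smyd2, a methyltransferase that acts on p53, fell from 28.8 ± 11.0 TPM to 10.0 ± 6.3 in mz_NrKO and 10.1 ± 5.1 in mz_DKO. The checkpoint kinase gene Chek2 fell by 0.53 in mz_NrKO and by 0.61 in mz_DKO on the log2 scale, and Atm, the kinase upstream of it, fell by 0.66 in mz_NrKO (adjusted p = 0.0142). Kmt5a, a p53 methyltransferase, rose by 0.74 in mz_DKO (adjusted p = 0.000953).

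Of the 16 other p53 targets in arrest and repair, 15 were tested, with 1 higher and 4 lower in mz_NrKO (median 0.16) and 2 higher and 4 lower in mz_DKO (median 0.26). Btg1, the paralog of Btg2, fell while Btg2 rose: it averaged 56.0 ± 32.7 TPM in mz_DHet, 7.41 ± 4.50 in mz_NrKO (-2.51 ± 0.33, adjusted p = 1.13e-07) and 9.71 ± 6.62 in mz_DKO (-2.59 ± 0.34, adjusted p = 2.63e-08). Sfn, which encodes 14-3-3 sigma and is abundant in epithelia, fell from 2436 ± 1032 TPM to 724 ± 486 in mz_NrKO and 538 ± 204 in mz_DKO. Psrc1, a microtubule regulator, rose by 1.23 in mz_NrKO and 1.68 in mz_DKO. The repair gene Xpc fell by 1.12 in mz_NrKO and 0.91 in mz_DKO, and the damage-induced Gadd45a rose by 1.06 in mz_DKO (adjusted p = 0.016).

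Of the 16 listed p53 targets in cell death, 15 were tested, with 3 higher and 1 lower in mz_NrKO (median 0.19) and 5 higher and 1 lower in mz_DKO (median 0.46). Casp6, an effector caspase, fell from 162 ± 55 TPM to 26.6 ± 30.6 in mz_NrKO (-2.86 ± 0.28, adjusted p = 7.61e-11) and 16.6 ± 13.0 in mz_DKO (-3.44 ± 0.28, adjusted p = 1.84e-13). Perp, a desmosomal membrane protein, rose from 142 ± 63 to 216 ± 116 TPM in mz_NrKO (adjusted p = 0.0419) and 377 ± 102 in mz_DKO (adjusted p = 1.38e-05). The death receptor gene Tnfrsf10b rose by 0.91 in mz_NrKO and 0.93 in mz_DKO, and Rps27l by 0.56 and 0.585. The mean level of Rps27l in mz_DKO, 429 ± 181 TPM, was nevertheless below the 469 ± 410 TPM of mz_DHet. These means are not adjusted for date, whereas the differences come from a fit of log2 values with a date term. Pmaip1, which encodes Noxa, rose by 1.75 in mz_DKO (adjusted p = 0.00351).

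Of the 24 metabolic and signalling targets 14 were tested, with 2 higher and 1 lower in mz_NrKO (median 0.04) and 3 higher and 0 lower in mz_DKO (median 0.20). Those named by the rule were Sco2 (0.95), Gpx1 (0.46) and Sesn1 (-0.51) in mz_NrKO, and Gpx1 (0.52), Bhlhe40 (1.60) and Sco2 (0.89) in mz_DKO. Of the 16 mitotic genes that are known to be lowered through p21, 15 were tested, with 2 higher and 1 lower in mz_NrKO (median 0.20) and 5 higher and 2 lower in mz_DKO (median 0.37). Cdk1, the mitotic kinase, fell from 823 ± 206 TPM to 269 ± 67 in mz_NrKO and 352 ± 150 in mz_DKO. In the same 2 groups Mki67 rose by 1.00 and 1.31 and Cdc20 by 0.51 and 0.72. Aurkb and Plk1, which drive chromosome segregation, rose by 0.81 and 1.16 in mz_DKO. In mz_EKO 0 genes of any of the 5 lists were called.

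At E2C and 4C the lists are to be read against the lower shares of all genes called there. In mz_NrKO at E2C (5.17% of all genes) 1 of 29 regulators tested was higher and 3 lower, and 0 and 1 of 14 arrest and repair targets, 0 and 0 of 10 cell death targets, 2 and 1 of 12 metabolic and signalling targets and 0 and 2 of 15 mitotic genes. The regulators Usp10 (0.45, a p53 deubiquitinase), Smyd2 (-1.05), Brd7 (-0.30) and Trp63 (-0.39) were called. So were Sertad1 (-1.14), Ddit4 (1.18, an inhibitor of mTOR signalling), Prkab1 (0.60), Sesn2 (-1.07), Aurkb (-0.62) and Cdc25c (-0.94). Without replicate 1 the calls of Brd7 (-0.19, adjusted p = 0.0629), Trp63 (-0.27, adjusted p = 0.0962) and Cdc25c (-0.84, adjusted p = 0.0638) were lost. The other 7 held, and the regulator Trp53bp1 was called higher as well. In m_NrKO (0.245% of all genes) Usp10 (0.58) and Prkab1 (0.75) were called, both higher, of 80 list genes tested. Without mz_NrKO replicate 1 both calls held in m_NrKO, and the list calls are to be read against the larger all-gene count given above. Ddit4 and Bax were then called higher as well, and Sirt1, Bub1 and Kif23 lower. These 5 and Trp53bp1 are named here after their values were seen. At 4C 86 list genes were tested, and 2 were called in mz_NrKO (0.675% of all genes) and 4 in mz_DKO (2.58%), all lower. Casp6 was lower at 4C in mz_NrKO (7.09 ± 3.16 TPM, n = 5, against 36.3 ± 8.0, n = 6, adjusted p = 0.0365) and in mz_DKO (8.49 ± 5.29, n = 10, adjusted p = 0.00164). Sertad1 was lower in both (-1.75 and -1.73), and Ei24 (-1.08) and Sesn2 (-0.70) were lower in mz_DKO.

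Across the 22 group means of log2(TPM + 1), the genes most like Trp53 among 13582 were Adat2 (Pearson r = 0.91), Triml1 (0.89) and Wdr35 (0.89). Those most like Mdm2 were Ppp6r2, Slc25a16 and Cdkl2 (0.96 each), and those most like Cdkn1a were Eif3h, Ergic3 and Puf60 (0.99 each). These groups share stages and libraries, so the values describe a shared stage profile.

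Among control embryos of 1 date some members varied together. This was looked at, after the values had been seen, in the 15 mz_DHet 8C embryos of 8 March 2022, over all 45 pairs of members. Of these pairs 40 had a positive Pearson r, 9 passed a permutation test by r and 5 by Spearman's rho after adjustment over the 45, and 4 passed by both. As a description, 88.9% of the member pairs had a positive r, against 50.8% of all pairs of 10863 genes in the same embryos. An r of 0.743 or more, the lowest among those 4, was found in 0.169% of all pairs. That limit was taken from the member pairs themselves, so no share of member pairs is set against it. Mdm2 and Phlda3 had r = 0.80 (permutation p = 4e-05, adjusted 0.0018) and rho = 0.88 (p = 4e-05, adjusted 0.0009). Mdm2 and Plk2 had r = 0.81 (permutation p = 0.00031, adjusted 0.00612) and rho = 0.80 (p = 0.00051, adjusted 0.00765). Plk2 and Phlda3 had r = 0.74 (permutation p = 0.00068, adjusted 0.00612) and rho = 0.79 (p = 0.00075, adjusted 0.00844). Ccng1 and Btg2 had r = 0.78 (permutation p = 0.00059, adjusted 0.00612) and rho = 0.94, whose p of 1e-05 is the smallest that 100000 permutations can give (adjusted 0.00045). Without the 2 embryos farthest from the median of the first gene, r was 0.79, 0.80, 0.85 and 0.68 for these 4 pairs. Trp53 itself had r = 0.18 with Mdm2 (permutation p = 0.524, adjusted 0.638) and 0.20 with Cdkn1a (permutation p = 0.461, adjusted 0.595). The embryos share a date, a genotype and a scaling to a fixed total, and whether they share a mother is not given in the sources used here.

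**Figure D5:**
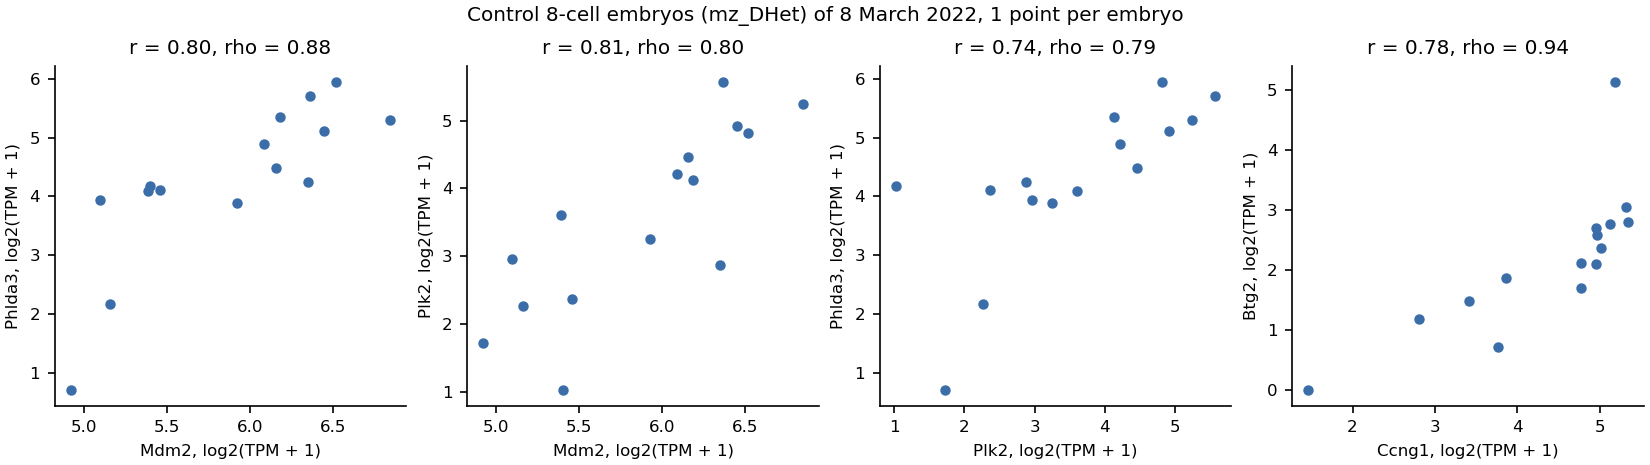
The 4 pairs of genes that passed by both measures, each as log2(TPM + 1) on both axes, 1 point per mz_DHet 8-cell embryo of 8 March 2022 (15 embryos), with Pearson r and Spearman rho above each panel. Embryos high in Mdm2 are also high in Phlda3 and Plk2, and the single highest Btg2 embryo stands away from the others in the last panel.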

How the data were processed

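Single-embryo RNA-seq values were read from deposited tables holding transcripts per 1000000 (TPM), made by the authors, for 263 full-length and 110 UMI libraries of the 514 samples. The others were not analysed here. The submitters' processing notes name cutadapt, STAR, RSEM, DESeq2 and mm10, without versions. Full-length columns summed to 814735 to 995883 TPM (65 entries without a gene name were left out), UMI columns to 1000000. TPM keep no depth, so no counting interval was given. The authors' deposited tables also give log2 fold changes and false discovery rates (adjusted p-values). The authors' criteria, per the file headers, were above 10 TPM in 1 sample or more, 1.5-fold or more and a false discovery rate below 0.1.

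Values were tested as log2(TPM + 1) with limma 3.58.1 (R 4.3.3; limma-trend, empirical Bayes, two-sided), the choice planned for a unit other than counts. One fit per stage held group and labelled date, over genes reaching 5 TPM in a number of libraries equal to the stage's smallest group. Permutations used scipy 1.17.1. On simulated data 66% of 100 genes changed by 1 (log2) and 95% of 100 changed by 2 were recovered for mz_NrKO at 8C (10876 genes), and 24% and 72% at 4C (13044 genes), with 4.17% and 8.57% false among the calls. The changed genes were drawn from those with a mean log2(TPM + 1) above 3, with normal noise independent between genes. Only these genes were changed and no date effect was simulated, while 28.3% of genes were called for mz_NrKO at 8C. The adjustment depends on that share, so the recovered and false shares may differ in the real data. Recovery of lower genes was not measured, and the 8C control medians of Btg2, Plk2, Trp53inp1 and Zmat3 lie below that level. Members and lists were chosen with earlier results of these data known. All members were named, with up to 4 called genes of smallest adjusted p per list and comparison, and the 3 genes most like Trp53, Mdm2 and Cdkn1a (mean of at least 10 TPM in a group). Alternatives changed the pseudocount (0.1), filter, date term, scaling, block, date, read type, controls and replicates. Those leaving out single 8C mutants were added after seeing the data.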

Additional observations from a re-analysis of the deposited data

Results flagged for a closer look

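In 140 sets of values (a member in a group of 4 to 10 embryos), 14 had 1 embryo set apart from the rest by a gap above Dixon's 95% limit, and chance flags about 1 in 20, a rate that does not hold for Phlda3 (5 of the 14): in 3 of its groups all other embryos were at 0, where any value above 0 stands apart. At L2C these were, in mz_NrKO, Cdkn1a at 17.5 TPM in replicate 2 (the others 62.0 to 156), Btg2 at 82.9 in replicate 8 (4.93 to 21.0), Tigar at 76.8 in replicate 6 (206 to 413) and Phlda3 at 8.85 in replicate 5 (others at 0). Phlda3 was at 1.52 TPM in mz_EKO replicate 1 and at 3.71 in mz_DKO replicate 3, with all others at 0, and Plk2 was at 0.0 in z_NrHet replicate 1 (2.31 to 6.15). At 4C, mz_DHet had Cdkn1a at 44.4 TPM in replicate 5 (88.1 to 110) and Phlda3 at 7.83 in replicate 2 (0 to 1.09), and mz_EKO had Mdm2 at 156 in replicate 3 (264 to 276). In mz_NrKO at 4C, Cdkn1a was at 11.2 TPM in replicate 4 (127 to 159) and Phlda3 at 4.36 in replicate 5 (0 to 0.43). In mz_DKO at 4C, Tigar was at 354 TPM in replicate 6 (194 to 267) and Trp53inp1 at 2.49 in replicate 4 (12.4 to 29.6). Groups of more than 10 were not searched.

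A difference between stages was called in UMI reads: the effect of mz_NrKO on Plk2 at 8C minus that at L2C was 4.82 (adjusted p = 0.0148). The 8C group has 5 UMI libraries, and full-length reads gave 2.48 (adjusted p = 0.27). At L2C alone the UMI estimate was -1.82 ± 0.84 (adjusted p = 0.656), with means of 5.11 TPM in mz_NrKO and 5.74 in mz_DHet. All 10 mz_NrKO UMI libraries at L2C carry the date 8 March 2022, but only 2 of 7 mz_DHet do. Genotype and date therefore overlap largely in the L2C part of this value.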

How the results depend on the processing

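Of 185 alternative values of called members in knockout comparisons, 155 kept direction and call, 30 lost the call and 0 reversed, and of 86 for stage steps 78 kept both, 7 lost the call and 1 reversed. The reversed value was Zmat3 from E2C to L2C, -0.37 with heterozygous controls. Members outside these counts also gained calls at 8C. Against mz_DHet, Zmat3 in mz_DKO was called after median-of-ratios scaling (adjusted p = 0.0446) and without the date term (0.0255). Trp53inp1 in mz_NrKO was called with a pseudocount of 0.1 (-1.34, adjusted p = 0.0361). Against mz_EKO, Mdm2 was called after median-of-ratios scaling in mz_NrKO (1.03, adjusted p = 0.0283) and mz_DKO (0.90, adjusted p = 0.0377). In mz_NrKO at E2C 1 member was called in place of 0 after median-of-ratios scaling (Tigar), on a single date (Plk2) and without replicate 1 (Tigar). In mz_NrKO at 8C the count of 4 fell to 2 (Btg2, Tigar) without the date term and with the replicate block, where Plk2 (adjusted p = 0.0517) and Zmat3 (0.0897) were lost. In mz_DKO against mz_EKO it fell from 4 to 2 without the filter and without the date term. From L2C to 8C it fell from 7 to 4 on a single date, and UMI reads called 1 member for mz_NrKO at 8C minus L2C in place of 0. Leaving out each mutant embryo at 8C gave 3 to 5 members in mz_NrKO and 3 to 6 in mz_DKO, and leaving out each mz_NrKO or mz_EKO embryo at 4C gave 0 in each case. In mz_DKO the block gave 3 in place of 4 (Trp53 lost, adjusted p = 0.091), and in mz_NrKO against mz_EKO 2 in place of 3 (Btg2 lost, 0.0507). Over all genes the block gave 1717 calls in place of 3075 in mz_NrKO at 8C, and mz_NrKO at E2C had 674 calls but 411 without the filter, 283 on a single date and 233 against mz_Nrpp. The 32 calls in m_NrKO at E2C became 409 without mz_NrKO replicate 1, 396 after median-of-ratios scaling, 184 on a single date, 176 without the date term, 16 without the filter and 12 with the block. The 35 between mz_NrHet and mz_Nrpp became 101 without that replicate and 103 after that scaling, but 13 without the date term and 7 with the block. At 4C the all-gene counts went from 88 down to 8 (block) in mz_NrKO and from 336 down to 118 (block) in mz_DKO. For mz_NrKO at 8C minus L2C the 317 calls became 58 with the block and 1815 without the date term, and at 8C minus 4C the 265 became 104 with the block and 414 without the filter. For mz_DKO the 1079 calls at 8C minus 4C became 663 with the block and 649 in UMI reads, and the 956 at 8C minus L2C became 548 in UMI reads. The cause of these changes was not tested. Replicate numbers pair nothing in the labels, and same-numbered embryos did not deviate together (for mz_NrKO and mz_DHet at 8C, 3 of 10 pairs had r above 0.1, lowest -0.39). Depth is unknown, so values under about 1 TPM have no known precision.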
